A study of Mus musculus with 3 samples.

Results

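The cells described here are fibroblasts of healing mouse skin wounds with a high level of *C3*, the transcript of complement component C3, on Day 7 and Day 14 post injury. They were chosen by a measured value. A cell barcode was taken as a fibroblast when it held at least 2000 UMIs (unique molecular identifiers, which count captured mRNA molecules), at most 10% mitochondrial UMIs, at least 1.5% of UMIs from *Dcn*, *Lum*, *Pdgfra*, *Col6a1*, *Col6a2*, *Col5a1*, *Pcolce* and *Col1a2* together, under 0.3% from the myeloid genes *Lyz2*, *Tyrobp*, *Fcer1g* and *S100a9*, and under 0.05% from *Pi16*. Among these gated fibroblasts, cells with at least 0.1% of their UMIs from *C3* were called C3-high, and the others served as reference. This gave 472 C3-high cells among 10982 gated fibroblasts of both days, in a series of 44693 barcodes.

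The libraries came from wounds of adult male C57BL/6J mice, an inbred wild-type strain, and no other allele or agent is named for them. GEO's design text calls the injury incisional, whereas the study's methods describe punch excisions. Each day was 1 library of cells pooled from several wounds, profiled by droplet-based scRNA-Seq of transcript 3' ends, so nothing that differed between the days has a replicate check and no test was made. Intervals are 95% intervals for counting error only.

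Complement is a set of plasma and tissue proteins that tags microbes and damaged cells for removal. The classical pathway starts with C1q and the proteases C1r and C1s, which cut C4 and C2, and the alternative pathway uses factor B. Both cleave C3, the central component, and can go on to the pore-forming terminal components. The liver makes most complement of the blood, and stromal cells such as fibroblasts are a known local source that responds to inflammatory cytokines. Transcription of *C3* is known to be driven by C/EBP factors, NF-kB and cytokine signals.

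The 250 bases before the annotated start of *C3* are shown because *C3* defines the cells, and those of *Col6a5* because that collagen VI chain was among the genes most raised beside it. They are RefSeq sequences on GRCm38.p6, both on the minus strand and written 5′ to 3′, at chr17:57228137-57228386 for *C3* and chr9:105960644-105960893 for *Col6a5*. Capitals mark matches, on either strand, to the letters TTNNGCAA (C/EBP) or TTCNNNGAA (STAT).
*C3*: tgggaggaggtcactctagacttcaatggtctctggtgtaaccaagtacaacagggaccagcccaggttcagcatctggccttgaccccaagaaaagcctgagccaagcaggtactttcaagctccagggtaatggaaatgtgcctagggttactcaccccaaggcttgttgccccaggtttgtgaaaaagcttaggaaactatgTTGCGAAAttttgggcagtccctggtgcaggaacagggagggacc
*Col6a5*: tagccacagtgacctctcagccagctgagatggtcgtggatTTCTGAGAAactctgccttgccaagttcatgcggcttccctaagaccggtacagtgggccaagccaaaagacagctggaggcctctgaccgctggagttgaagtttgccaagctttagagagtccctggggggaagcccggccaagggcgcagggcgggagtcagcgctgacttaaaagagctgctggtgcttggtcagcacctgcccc
The C/EBP letters began 45 bases before the *C3* start. They stood in 10.8% of 32851 mouse promoters of 300 bases (250 before to 50 after the start), and the STAT letters, which began 209 bases before the *Col6a5* start, in 8.30%. The AP-1 letters TGANTCA, in 7.81% of promoters, were in neither window. A match describes the letters and does not show a binding site.

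C3-high cells made up 6.30% of gated fibroblasts on Day 7 (333 of 5284, 95% interval 5.66 to 6.99, Clopper-Pearson) and 2.44% on Day 14 (139 of 5698, 2.05 to 2.87). The Day 3 library held 3 such cells among 309 gated fibroblasts, too few to describe. The days shared 111 barcodes, none of them a C3-high cell in both. Among C3-high cells the median *C3* count was 14 UMIs on Day 7 and 13 on Day 14, with a lowest of 3 on both days. Their median share of *C3* was 0.140% and 0.138% of UMIs, and the highest single cell reached 0.601% and 0.621%.

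The limit cut through a continuous range. On Day 7, 27.0% of C3-high cells lay between 0.1% and 0.12%, and 135 reference cells lay between 0.08% and 0.1%. On Day 14 these were 32.4% and 57 cells. The reference cell nearest the limit held 0.0994% on Day 7 and 0.0991% on Day 14. At least 1 *C3* UMI was found in 43.5% of reference cells on Day 7 and in 23.7% on Day 14. C3-high cells were shallower than the reference, with a median of 9504 UMIs against 11131 on Day 7 and 8412 against 10932 on Day 14, and the part of depth in the results was not tested beyond the thinned values given here.

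The *Pi16* limit also shaped the group. Cells that passed every other limit but held at least 0.05% *Pi16*, a marker of adventitial fibroblasts, reached the *C3* limit in 45.3% of 1438 cases on Day 7 and in 13.7% of 1498 on Day 14. With no limit on *Pi16*, C3-high cells were 14.7% of gated fibroblasts on Day 7 and 4.78% on Day 14. Even below the limit, *Pi16* stood at 204 CPM in C3-high cells against 57.5 CPM in the reference on Day 7, and at 148 against 99.6 CPM on Day 14. CPM is the number of UMIs of a gene per 1000000 UMIs summed over the cells of a group.

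The 5 genes that named the group beside *C3* were raised in C3-high cells on both days. *C4b*, the complement component C4 that the classical pathway cleaves, stood at 652 CPM (624 to 680, exact Poisson) in C3-high cells and 133 CPM (130 to 136) in the reference on Day 7, and at 787 CPM (738 to 838) and 161 CPM (157 to 164) on Day 14. The log2 ratio was 2.29 on both days. *Lbp*, the lipopolysaccharide-binding protein, stood at 534 against 92.8 CPM on Day 7 and 254 against 103 CPM on Day 14, log2 ratios of 2.53 and 1.30. Its level in C3-high cells thus differed between the libraries far more than in reference cells.

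*Col6a5*, an alpha chain of collagen VI, stood at 117 against 19.6 CPM on Day 7 and 167 against 30.5 CPM on Day 14. *Ace*, the angiotensin-converting enzyme, stood at 359 against 108 CPM and 484 against 198 CPM. *Gdf10*, a TGF-beta superfamily ligand, stood at 115 against 39.7 CPM and 153 against 47.1 CPM. For each of these genes the intervals of both groups were apart on both days. Where the reference was weighted to the cluster mix of the C3-high cells, so that each cluster described further on counted as much in both groups, *Gdf10* fell under a log2 ratio of 1 on both days, at 0.71 and 0.87, and *Lbp* (0.92) and *Ace* (0.84) did so on Day 14. With no limit on *Pi16*, *Gdf10* stood at 0.65 and 0.88. These markers were selected with results of these libraries known and are no independent evidence of the group.

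**Figure D1:**
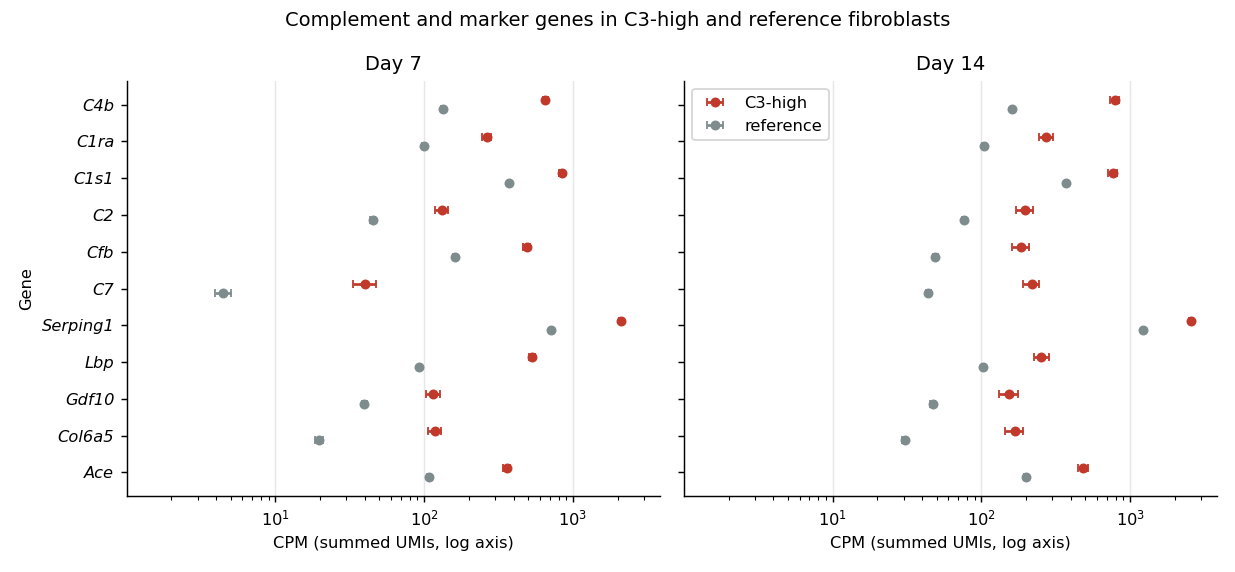
CPM on a log axis of 11 complement and marker genes in C3-high (red) and reference (grey) fibroblasts on Day 7 (left) and Day 14 (right), with 95% Poisson intervals that are often narrower than the point. All 11 red points lie to the right of the grey ones, from *C7* at 40.1 against 4.45 CPM on Day 7 to *Serping1* at 2563 against 1220 CPM on Day 14.

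Counted per cell, the markers were detected more often in C3-high cells, as their levels already give, and whether they occur in the same cells more than their single rates give was not tested. After each cell was thinned to 2000 UMIs, at least 2 of the 5 markers were detected in 71.2% of C3-high cells against 16.3% of reference cells on Day 7, and in 72.7% against 20.1% on Day 14. With all UMIs, at least 3 were detected in 83.2% against 30.1% and in 82.7% against 37.2%. Detection of *C4b* alone after thinning was 68.8% against 19.2% on Day 7 and 70.5% against 22.6% on Day 14. The rarest were *Col6a5*, in 17.4% and 22.3% of thinned C3-high cells, and *Gdf10*, in 17.7% and 28.1%. No marker was thus found in every C3-high cell.

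Across the transcriptome few genes were as far apart. A gene is counted here as higher or lower at a log2 ratio of at least 1 in either direction. It had to reach at least 50 CPM in 1 of the groups and at least 10 UMIs in all. The genes of the rule are left out. A gene can pass on its level in C3-high cells alone, and some lists hold markers. The list counts given below are thus descriptions and no independent evidence. On Day 7, 91 of 2794 genes were higher in C3-high cells (3.26%) and 88 were lower (3.15%). On Day 14, 97 of 2641 were higher (3.67%) and 71 lower (2.69%). Of 2424 genes that passed on both days, 45 were higher on both (1.86%) and 28 lower on both (1.16%). The shared genes were 49.5% of the higher genes of Day 7 and 46.4% of those of Day 14, and 31.8% and 39.4% of the lower ones. These shares also depend on which genes passed on the other day. Of the Day 7 genes, 86 of 91 higher and 47 of 88 lower ones passed on Day 14. Of the Day 14 genes, 78 of 97 higher and 58 of 71 lower ones passed on Day 7. The median of all genes was -0.19 on Day 7 and -0.00 on Day 14. With Day 7 centred on the median of ratios, 124 genes were higher and 67 lower. Against the reference at the cluster mix of C3-high cells fewer genes were past a log2 ratio of 1, with 37 higher and 24 lower on Day 7 and 55 and 33 on Day 14.

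**Figure D2:**
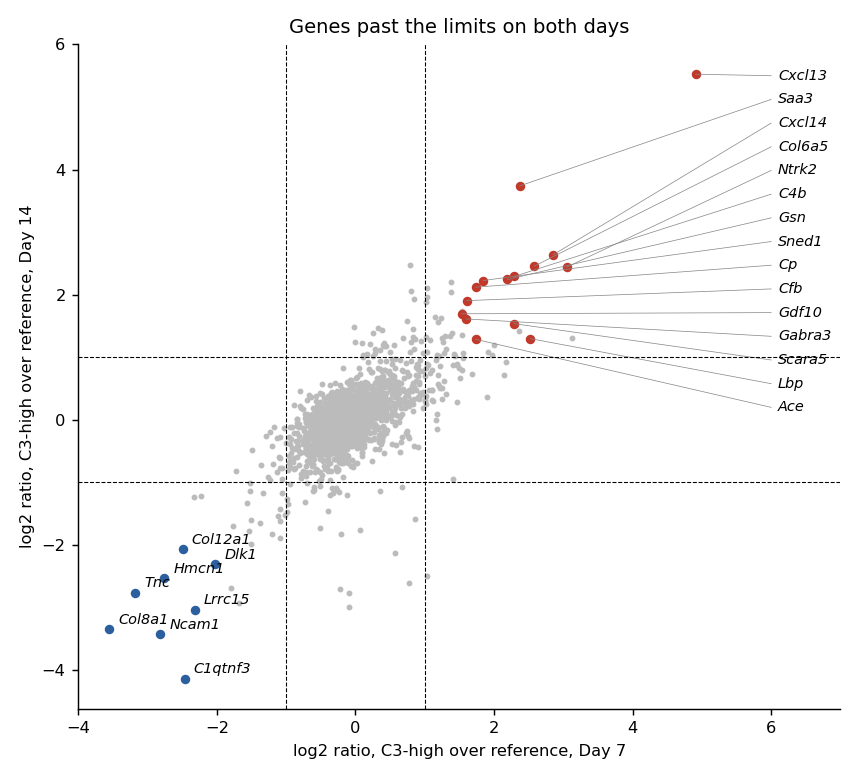
Log2 ratio of CPM, C3-high over reference, on Day 7 (x axis) and Day 14 (y axis) for genes past the limits on both days. Each grey point is a gene, red and blue mark named genes, and dashed lines stand at 1 and -1. *Cxcl13* is the farthest red point at 4.91 and 5.52, and *Col8a1*, at -3.55 and -3.34, is the farthest blue point on Day 7.

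Some genes of the classical pathway were raised beside *C4b*, namely *C1ra*, *C1s1* and *C2*, though less so at the cluster mix, as given further on. Of 14 listed genes of the classical and lectin start, 8 passed the limits on Day 7 and 5 on Day 14. On both days 4 were higher, the marker *C4b* among them, against the background of 3.26% and 3.67% of all genes. *C2* passed on Day 7 only through C3-high cells. *C1ra* stood at 263 against 100 CPM and 272 against 104 CPM. *C1s1* stood at 840 against 373 CPM and 761 against 370 CPM. Both encode the proteases of the C1 complex. *C2*, which forms the classical C3 convertase with C4, stood at 131 against 45.1 CPM and 195 against 76.7 CPM. The C1q chains, made chiefly by macrophages, were not in this pattern, with *C1qa* at 109 against 85.4 CPM on Day 7 and 37.7 against 39.7 CPM on Day 14.

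*Cfb*, which encodes factor B of the alternative pathway, stood at 488 against 160 CPM on Day 7 and 184 against 49.0 CPM on Day 14. *C7*, a terminal component, stood at 217 against 43.9 CPM on Day 14 and, below the limit of 50 CPM, at 40.1 against 4.45 CPM on Day 7. *Serping1*, the C1 inhibitor, stood at 2088 against 709 CPM and 2563 against 1220 CPM. *Cd55*, a regulator that speeds the decay of convertases, stood at 165 against 121 CPM and 276 against 182 CPM, below a log2 ratio of 1 on both days. None of the 8 complement receptor genes passed the limits on either day. At the cluster mix, *C1ra*, *C1s1* and *C2* fell under a log2 ratio of 1 on both days, with *C1s1* at 0.73 and 0.63, and *Serping1* did so on Day 14, at 0.80, while *C4b* stood at 1.58 and 1.77 and *Cfb* at 1.19 and 1.38. With no limit on *Pi16*, *C2* (0.60), *C1s1* (0.96) and *Serping1* (0.96) were under 1 on Day 14.

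Acute-phase genes are those whose products are known to increase in inflammation. Of the listed ones that passed, 8 of 11 were higher on Day 7 and 6 of 9 on Day 14, against 3.26% and 3.67% of all genes. Both counts include *Lbp*, a marker picked with results of these libraries known. They also include *Cp* and *Steap4*, which passed 50 CPM only through C3-high cells, as did *Hp* on Day 7 and *Saa3* on Day 14. The counts are therefore no independent evidence. *Cp*, which encodes the copper-carrying ferroxidase ceruloplasmin, stood at 141 against 42.1 CPM on Day 7 and 170 against 39.0 CPM on Day 14. *Il6*, the cytokine that drives the hepatic acute-phase response, stood at 514 against 223 CPM and 599 against 295 CPM. *Steap4*, a metalloreductase, stood at 100 against 45.1 CPM and 114 against 36.4 CPM. At the cluster mix *Il6* fell under a log2 ratio of 1 on both days, at 0.92 and 0.69, and *Steap4* on Day 7, at 0.86. With no limit on *Pi16* they stood at 0.82 and 0.73 on Day 7. On Day 14 the log2 ratio of *Il6*, 1.02, stayed at least 1 in 10 of 16 alternatives. It was 0.96 without the cell that held most UMIs of the gene. *Serpina3n*, a protease inhibitor, passed the limit on Day 7, at 300 against 80.8 CPM, and stood at 146 against 113 CPM on Day 14.

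*Saa3*, a serum amyloid A, stood at 2425 against 469.8 CPM on Day 7, in 37.5% of C3-high cells, and at 537.5 against 40.3 CPM on Day 14. Its Day 7 log2 ratio of 2.37 stayed at least 1 in 15 of 16 alternatives, with a lowest value of 0.99. On Day 14 it was found in 8 of 139 cells, and 1 cell held 78.3% of its UMIs. Without that cell the log2 ratio was 1.55 in place of 3.74. *Hp*, haptoglobin, stood at 181 against 24.3 CPM on Day 7. The listed NF-kB targets were mostly near the reference, with 1 of 7 higher on Day 7 (*Icam1*, 180 against 83.4 CPM) and 0 of 7 on Day 14, against 3.26% and 3.67% of all genes. Of 9 inflammatory transcription factors none was higher or lower by the limit on either day, against at most 3.67% of all genes in either direction. *Cebpd* stood at 479 against 275 CPM and 1285 against 1032 CPM, and *Cebpb* at 476 against 320 CPM and 647 against 549 CPM.

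The chemokine list held the largest ratio of all genes past the limits outside the rule, on both days. *Cxcl13*, which attracts B cells, stood at 69.4 CPM in C3-high cells and 2.30 CPM in the reference on Day 7, and at 341 and 7.42 CPM on Day 14. It was found in 60 of 333 C3-high cells on Day 7 and in 49 of 139 on Day 14, against 1.60% and 3.36% of reference cells. *Cxcl14*, a chemokine known from skin, stood at 116 against 16.1 CPM and 288 against 46.2 CPM. *Cxcl12*, the ligand of CXCR4, stood at 466 against 191 CPM and 421 against 166 CPM. With no limit on *Pi16* its log2 ratio fell from 1.29 to 0.44 on Day 7 and from 1.34 to 0.47 on Day 14, and with the *C3* limit at 0.05% it was 0.91 on Day 7. *Ccl11*, which attracts eosinophils, stood at 258 against 64.5 CPM and 465 against 204 CPM. In all, 4 of 13 listed chemokine and cytokine genes were higher on Day 7 and 5 of 13 on Day 14, against 3.26% and 3.67% of all genes. Of these, *Cxcl13* and *Cxcl14* passed 50 CPM on both days only through C3-high cells, so the counts are no independent evidence. At the cluster mix *Ccl11* stood at a log2 ratio of 0.67 on Day 14. *Cxcl1* and *Cxcl2*, which attract neutrophils, were not among the higher genes, with *Cxcl1* at 1738 against 2159 CPM and 2872 against 2890 CPM. *Cxcl5* was lower on Day 7, at 85.1 against 215 CPM.

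Genes outside these lists completed the set of the 12 highest over both days. *Gsn*, which encodes the actin-severing protein gelsolin, stood at 1980 against 433 CPM on Day 7 and 6852 against 1447 CPM on Day 14. It was widely detected in both groups, in 98.8% of C3-high and 91.7% of reference cells on Day 7 with all UMIs, and in 83.2% against 49.0% after thinning to 2000 UMIs. It was also found in 92.6% of 27 keratinocytes of Day 7 (median depth 7745 UMIs). *Ntrk2*, the receptor of brain-derived neurotrophic factor, stood at 62.3 against 7.53 CPM and 80.4 against 14.8 CPM. *Scara5*, a ferritin receptor, stood at 136 against 27.8 CPM and 201 against 69.2 CPM. *Sned1*, an extracellular matrix protein, stood at 176 against 49.0 CPM and 216 against 46.1 CPM. *Gabra3*, a GABA-A receptor subunit, was the least abundant of the 12, at 56.7 against 18.7 CPM and 50.9 against 16.6 CPM, and its log2 ratio on Day 14 was 0.93 at the cluster mix.

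Some members of several further lists were higher. *Chrdl1*, a BMP antagonist, stood at 126 against 48.6 CPM and 200 against 43.4 CPM. Of 9 listed TGF-beta and BMP genes that passed, 2 were higher and 1 lower on Day 7, and 3 were higher on Day 14, against 3.26% and 3.67% of all genes higher. The higher ones include the marker *Gdf10*. Both *Gdf10* and *Chrdl1* passed 50 CPM only through C3-high cells, so the counts are no independent evidence. *Procr*, the protein C receptor and a marker of adventitial cells, stood at 93.7 against 36.0 CPM and 131 against 31.8 CPM, and 4 of 13 adventitial genes were higher on Day 7 and 6 of 14 on Day 14, against the same shares of all genes. Of these, *Procr* passed 50 CPM only through C3-high cells on both days, as did *Scara5* on Day 7. *Gpx3*, a secreted glutathione peroxidase, stood at 1935 against 815 CPM and 2300 against 927 CPM. *Lpl*, lipoprotein lipase, stood at 380 against 154 CPM and 597 against 272 CPM. In its list of adipocyte lineage genes 1 of 4 was higher on Day 7 and 3 of 3 on Day 14 (*Lpl*, *Ebf2* and *Apoe*). The shares of all genes were 3.26% and 3.67%. *Ifi27l2a*, an interferon-stimulated gene, stood at 492 against 241 CPM and 696 against 162 CPM. Of 14 listed interferon-stimulated genes 3 passed the limits on each day. Of these, 2 were higher on Day 7 (with *Gbp2*) and 1 on Day 14, against 3.26% and 3.67% of all genes. At the cluster mix *Lpl* fell under a log2 ratio of 1 on both days, at 0.95 and 0.90, and *Chrdl1* (0.74), *Ifi27l2a* (0.61) and *Gpx3* (0.99) did so on Day 7. With no limit on *Pi16*, *Lpl* stood at 0.89 and 0.58.

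Contractile and matrix genes of activated wound fibroblasts were lower on Day 7. On Day 14 fewer of the listed myofibroblast genes passed the limits, and no contractile gene was among the lower ones. All 7 that passed on Day 14 had negative log2 ratios. Of the 11 listed myofibroblast genes that passed on Day 7, 8 were lower and none was higher, against 3.15% of all genes, and on Day 14 3 of 7 were lower (*Lrrc15*, *Cdh11* and *Cthrc1*), against 2.69%. *Acta2*, smooth muscle actin, stood at 34.5 CPM in C3-high cells and 339 CPM in the reference on Day 7, and was found in 9.61% and 41.9% of cells. On Day 14 it was under the limit in both, at 2.46 and 31.1 CPM, a log2 ratio of -3.66 with UMIs in 3 C3-high cells. *Lrrc15*, a marker of activated fibroblasts, stood at 83.2 against 415 CPM and 13.1 against 108 CPM. *Postn*, periostin, stood at 2332 against 5604 CPM on Day 7 and 1896 against 3573 CPM on Day 14, where its log2 ratio of -0.91 did not reach the limit. The cell cycle list held 4 lower genes of 5 on Day 7, against 3.15% of all genes, with *Mki67* at 16.3 against 58.7 CPM, and none of its genes passed the limits on Day 14.

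The 8 lowest genes over both days included 3 collagen or collagen-like genes. Of the listed collagens outside the rule, 15 passed on each day. On Day 7, 3 were higher and 4 lower, against 3.26% and 3.15% of all genes. On Day 14, 1 was higher, the marker *Col6a5*, and 4 were lower, against 3.67% and 2.69%. *Col6a5* was also among the higher ones of Day 7. It passed 50 CPM only through C3-high cells on both days, as did *Col4a2* on Day 7. *Col8a1*, a short-chain collagen, stood at 8.01 against 94.0 CPM on Day 7 and 21.3 against 216 CPM on Day 14. *Col12a1*, which lies on collagen fibrils, stood at 127 against 715 CPM and 41.8 against 175 CPM. *C1qtnf3*, a C1q and TNF-related secreted protein, stood at 47.2 against 261 CPM and 27.9 against 490 CPM. *Tnc*, tenascin C of provisional matrix, stood at 97.1 against 882 CPM and 29.5 against 201 CPM, with 61.1% of its Day 14 UMIs in 1 cell and a Day 14 log2 ratio of -0.93 at the cluster mix. *Lrrc15*, given above, *Ncam1*, *Hmcn1* and *Dlk1* made up the rest, with *Ncam1*, an adhesion molecule, at 16.6 against 117 CPM and 4.92 against 52.9 CPM.

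The main fibrillar collagens did not follow. *Col1a1* stood at 49625 against 40646 CPM on Day 7 and 39324 against 54586 CPM on Day 14, and *Col3a1* at 39475 against 31620 CPM and 30636 against 33789 CPM. Their log2 ratios lay between -0.47 and 0.32. None of the 12 fibroblast genes outside the rule was higher or lower by the limit on either day, and all 12 passed. The share of all genes was at most 3.67% in either direction. *Col4a1* and *Col4a2*, of basement membranes, were higher on Day 7, at 199 against 70.4 CPM and 101.4 against 36.7 CPM, and under the limit on Day 14, at 315 against 178 CPM and 181 against 98.5 CPM.

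Of the listed genes of the deeper (reticular) dermis, *Dlk1* and *Mest* were lower and *Gpx3* was higher on both days, with *Mest* at -0.84 on Day 14 at the cluster mix. On Day 7, 2 of 7 were lower, against 3.15% of all genes. On Day 14, 5 of 8 were lower, against 2.69%, among them *Cilp* (82.1 against 534 CPM), *Mfap4* (175 against 1396 CPM) and *Mgp* (304 against 1332 CPM), which encode matrix proteins. On Day 7 *Mfap4* stood at 306 against 327 CPM and *Mgp* at 244 against 164 CPM. *Itgbl1*, which encodes integrin beta-like 1, stood at 92.8 against 88.4 CPM on Day 7 and 102 against 344 CPM on Day 14. Its level in C3-high cells was thus similar in both libraries, while the reference level differed. Of 7 listed candidate genes of the study, 4 were higher on Day 7 (*Clec3b*, *Ccl11*, *Saa3* and the marker *C4b*), against 3.26% of all genes. On Day 14, 3 were higher (*C4b*, *Ccl11* and *Saa3*) and 1 was lower (*Itgbl1*), against 3.67% and 2.69%. *Saa3* passed 50 CPM on Day 14 only through C3-high cells, with most of its UMIs in 1 cell. The study drew its candidates partly from fibroblast subclusters of these same libraries, so the counts are no independent evidence. Its candidates *C3* and *Pi16* are genes of the rule and are left out. *Clec3b*, which encodes tetranectin, stood at 578 against 247 CPM on Day 7 and 1146 against 634 CPM on Day 14. Its Day 7 log2 ratio was 0.61 at the cluster mix.

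The same genes were followed over 5 bins of *C3*, from no *C3* UMI to at least 0.2% of a cell's UMIs. *C4b* stood at 56.9, 178, 413, 574 and 1018 CPM from the lowest to the highest bin on Day 7, and at 113, 272, 477, 656 and 1225 CPM on Day 14. *Gsn* stood at 1161 CPM in the lowest and 9233 CPM in the highest bin of Day 14. *Cxcl13* was concentrated at the top, with 53.5 and 144 CPM in the bins above the limit on Day 7 and 140 and 1018 CPM on Day 14. *Col8a1* went the other way, from 128 to 3.50 CPM on Day 7 and from 261 to 17.9 CPM on Day 14. *Saa3* did not follow the order at the top on Day 7, with 2702 CPM in the bin of 0.1% to 0.2% and 1130 CPM in the highest. On Day 14 these bins stood at 562 and 454 CPM, and most *Saa3* UMIs of the first were those of the 1 cell named above, so no order is read from them. The bins share their libraries, and the highest bin held 71 cells on Day 7 and 36 on Day 14.

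**Figure D3:**
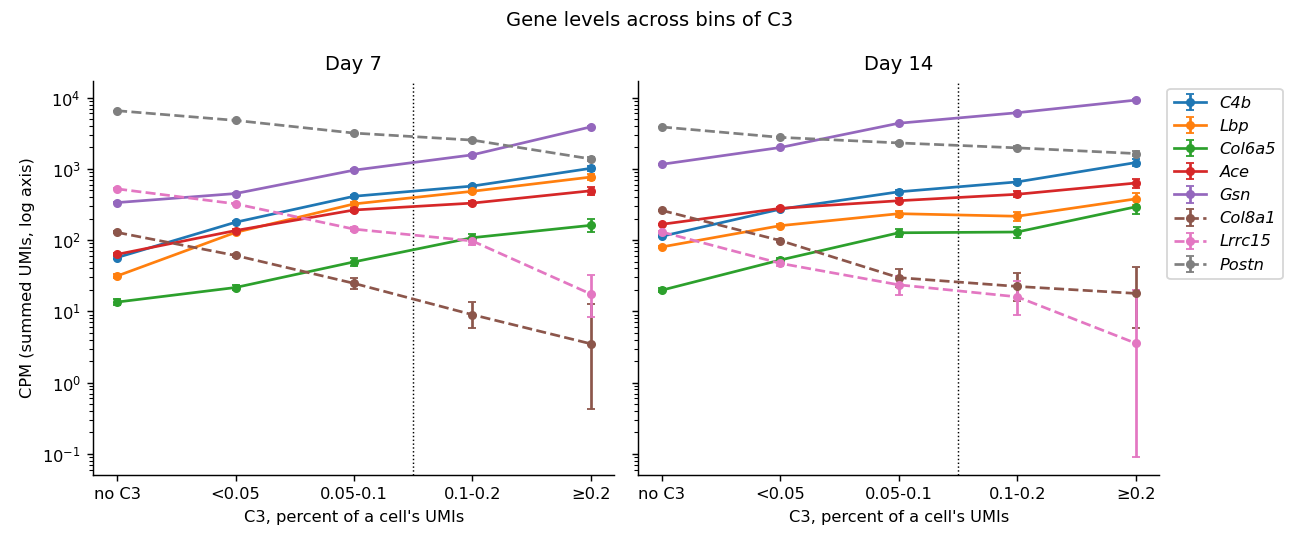
CPM on a log axis of 8 genes over cells binned by *C3* (percent of a cell's UMIs) on Day 7 (left) and Day 14 (right), with 95% Poisson intervals; the dotted line marks the 0.1% limit, and dashed curves are the genes lower in C3-high cells. *C4b* climbs from 56.9 to 1018 CPM on Day 7 with no step at the limit, and *Col8a1* descends from 128 to 3.50 CPM.

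Clustering within each library, without the genes of the rule and the lists, spread the C3-high cells over several clusters. On Day 7, cluster 2, led by *Fgl2*, *Col6a5* and *Scara5*, held 93 of them, which was 14.6% of its 636 cells, and cluster 7, led by *Cxcl14*, *Ccdc3* and *Gdf10*, held 67, or 14.7%. Cluster 6, led by *Mmp13*, *Col7a1* and *Acta2*, held 0 of 488 cells (interval up to 0.753%) and cluster 4 held 1 of 585. On Day 14, cluster 1, led by *Saa3*, *Col6a5* and *Gbp2*, held 43 (6.15%), and cluster 3, led by *Gdf10*, *C7* and *Fmo2*, held 39 (7.196%). Cluster 2, led by *Thbs4*, *Col8a1* and *Cilp*, held 0 of 579.

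**Figure D4:**
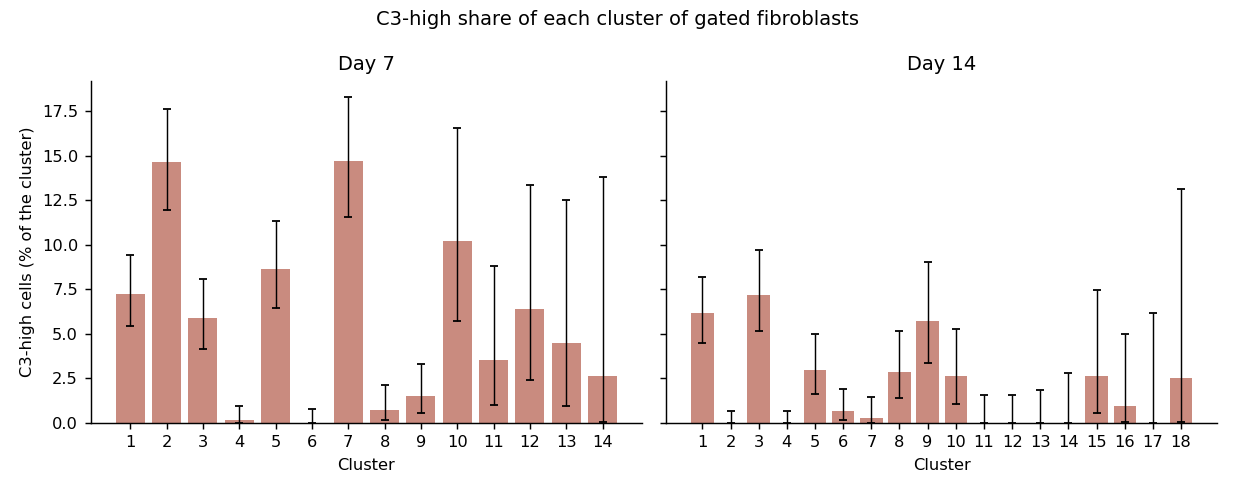
Share of C3-high cells (percent, bars from 0) in each cluster of gated fibroblasts on Day 7 (left, 14 clusters) and Day 14 (right, 18 clusters), with 95% Clopper-Pearson intervals. Clusters 2 and 7 of Day 7 reach 14.6% and 14.7%, and clusters 1 and 3 of Day 14 reach 6.15% and 7.196%.

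Within the 3 clusters of Day 7 that held at least 50 C3-high cells, the differences in *C4b*, *Gsn* and most of those in *Cfb* were present as well. *C4b* had log2 ratios of 2.03, 1.35 and 1.86 in clusters 1, 2 and 7, *Cfb* of 1.13, 0.78 and 2.08, and *Gsn* of 2.17, 1.68 and 1.97. *Gdf10* was at 1.09, 0.20 and 0.92, so little of its difference was present inside cluster 2. *Acta2* was at -3.35, -0.03 and -3.08, and the level of *Acta2* in cluster 2 was low in both groups, at 31.3 and 32.0 CPM. The differences in *C4b*, *Cfb* and *Gsn* were smaller in cluster 5, at 0.97, 0.67 and 0.66. This cluster held 48 C3-high cells and was led by *Adm*, *Rnd1* and *Hp*. There *Acta2* was at 0.44 (-0.09 to 0.93) and *Tnc* at -0.07 (-0.48 to 0.31). Both intervals hold values of either sign, so no direction is read from them. In cluster 3, with 36 C3-high cells, *C4b* was at 1.92, *Cfb* at 1.85, *Gsn* at 1.29, *Acta2* at -1.67 and *Tnc* at -3.58. Cluster 1 was led by *Cd74* and MHC class II genes, which are known from antigen-presenting cells. On Day 7, cluster 12 was led by *Acod1* and *S100a8*, known from myeloid cells, and cluster 14 by *Rgs5*, *Selp* and *Cldn5*, known from vessels. On Day 14 cluster 10 was led by *Il1b*, *Cd74* and MHC class II genes, cluster 16 by *Ly6d*, *Krtdap* and *Krt14* of keratinocytes, and cluster 17 by *Rgs5*, *Fabp4* and *Myh11* of vessels. Without these 6 clusters (picked after the data were seen), C3-high cells were 6.18% and 2.49% of gated fibroblasts, with 99 genes higher and 91 lower on Day 7 and 92 and 70 on Day 14. No cluster of Day 14 held 50 C3-high cells. In cluster 1, with 43, *C4b* was at 1.77, *Cfb* at 1.45 and *Gsn* at 1.44, while *Gdf10* was at 0.34 and *C2* at -0.01. *Acta2* was at -0.04 there (-2.36 to 1.58) and *Tnc* at 1.05 (-0.005 to 1.95). In cluster 3, with 39, *C4b* was at 1.99, *Cfb* at 1.73, *Gsn* at 2.07, *Gdf10* at 1.60 and *C2* at 1.61. *Tnc* was at -1.28 there (-4.36 to 0.62). These *Acta2* and *Tnc* levels were under 50 CPM in both groups and their intervals include 0, so no direction is read from them.

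Between the libraries, 79 of 2647 genes were at least 1 log2 unit higher in C3-high cells of Day 14 than of Day 7, and 67 were lower. The 5 highest included *C7*, at 40.1 CPM on Day 7 and 217 CPM on Day 14 in C3-high cells and at 4.45 and 43.9 CPM in the reference. *Penk*, which encodes proenkephalin, went from 18.2 to 112 CPM in C3-high cells and from 5.77 to 53.2 CPM in the reference. *Cntfr*, the receptor of ciliary neurotrophic factor, stood at 10.5 and 87.8 CPM in C3-high cells and at 15.2 and 46.5 CPM in the reference. *Krt5* and *Krt14*, keratinocyte keratins, headed the list through 1 cell of Day 14 that held 88.8% and 92.5% of their UMIs.

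Of the 5 lowest, *Spp1*, osteopontin, stood at 60.4 CPM on Day 7 and 4.10 CPM on Day 14 in C3-high cells and at 360 and 8.50 CPM in the reference. *H19*, an imprinted non-coding RNA, stood at 168 and 16.4 CPM against 479 and 65.0 CPM. *Prg4*, lubricin, stood at 262 and 37.7 CPM against 75.2 and 14.6 CPM. *Cxcl5* and *Lrrc15* were the others. Each of these genes moved in the same direction in reference cells of the same libraries. Among complement genes *Cfb* was lower in the Day 14 library in both groups, by a log2 ratio of -1.41 in C3-high and -1.71 in reference cells, while *Lbp* was at -1.07 in C3-high and 0.15 in reference cells.

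The genes whose level followed *C3* most closely over single gated cells were largely complement and acute-phase genes on Day 7. Pearson's r of log(1 + UMIs per 10000) with *C3* over 5284 cells, among 2669 genes, was 0.62 for *C4b*, 0.60 for *Serping1*, 0.59 for *Lbp*, 0.55 for *Cfb*, 0.51 for *Serpina3n* and 0.49 for *C1s1*, followed by *Selenop*, *Ccl11*, *Ace* and *Pi16* at 0.46 to 0.48. On Day 14 the values were lower, over 5698 cells and 2418 genes, at 0.45 for *C4b*, 0.44 for *Gsn*, 0.35 for *Gpx3* and 0.34 for *Lgi2*, followed by *Serping1*, *Ace*, *Scara5*, *Cfb*, *Plac8* and *Ifi27l2a* at 0.29 to 0.31. The cells share a library and differ in depth, and the values are descriptions.

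Few listed stress and receptor genes reached a log2 ratio of 1. None of 10 genes known to be induced by tissue dissociation was higher or lower by the limit on either day. The share of all genes was at most 3.67% in either direction. Of the cytokine receptors 0 of 11 were higher on Day 7 and 1 of 10 on Day 14, against 3.26% and 3.67% of all genes, namely *Il1r1* at 131 against 60.5 CPM. Of the hypoxia and glycolysis genes 0 of 8 were higher on Day 7 and 2 of 6 on Day 14, against the same shares, the latter being *Vegfa* at 90.3 against 44.7 CPM and *Adm* at 98.5 against 25.9 CPM, with 25.8% of the *Adm* UMIs in 1 cell. Both passed 50 CPM only through C3-high cells.

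Markers of other cell types are given as summed levels. The summed level of 6 macrophage markers was 234 CPM in C3-high and 212 CPM in reference cells on Day 7 and 108 against 107 CPM on Day 14. In C3-high cells those of T cells, B cells and mast cells each summed to under 2 CPM on both days, against at most 6.15 CPM in the reference, and all 3 adipocyte markers were at 0, against at most 0.0953 CPM. The 5 endothelial markers summed to 9.25 against 19.4 CPM and 7.39 against 15.8 CPM. The 5 pericyte markers stood at 127 against 63.7 CPM on Day 7, where 1 cell held 61.9% of the UMIs of *Rgs5*, and at 39.4 against 78.4 CPM on Day 14. The 3 melanocyte markers stood at 16.95 against 4.83 CPM and 27.1 against 38.5 CPM. Dendritic cell markers stood at 350 against 149 CPM on Day 14, where 1 cell held 25.4% of the UMIs of *H2-Aa*. The 5 keratinocyte markers stood at 293 against 218 CPM on Day 14, most of it in the 1 cell named above. Cells scored as doublets were 16.8% of C3-high and 14.3% of reference cells on Day 7, and 6.47% and 8.99% on Day 14.

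Other cell types of the libraries were measured for what free RNA, or expression of their own, can give. They were picked for a low share of the fibroblast genes of the rule, which leaves out cells with the most fibroblast RNA. *Col1a1* still stood at 1568 CPM in T cells of Day 7 (95.2% of cells) and at 601 CPM in keratinocytes of that day. *C3* stood at 22.7 CPM in 124 T cells of Day 7 (median depth 1660 UMIs, 3.23% of cells with a UMI), at 11.6 CPM in 273 endothelial cells (5449 UMIs, 6.96%), at 13.4 CPM in 27 keratinocytes (7745 UMIs, 11.1%) and at 1.01 CPM in 438 keratinocytes of Day 14 (6068.5 UMIs, 0.685%). Macrophages held 49.3 CPM on Day 7 and 27.3 CPM on Day 14. All were below the 133 and 57.9 CPM of reference fibroblasts and far below the 1609 and 1639 CPM of C3-high cells, a value that the rule itself set. Other genes were not always lower outside the fibroblasts. *Lbp* stood at 147 CPM in 199 endothelial cells of Day 14, above the 103 CPM of reference fibroblasts and below the 254 CPM of C3-high cells. *Gsn* stood at 588 CPM in keratinocytes of Day 7, above the 433 CPM of the reference, and at 892 CPM in those of Day 14, below its 1447 CPM. *C4b* stayed between 4.45 and 40.7 CPM in T cells, keratinocytes, endothelial cells and macrophages of both days. It was not particular to C3-high cells among fibroblasts. In the fibroblasts that only the *Pi16* limit left out, *C4b* stood at 501 CPM on Day 7 and 200 CPM on Day 14. Their *C3* stood at 1137 and 322 CPM.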

How the data were processed

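Skin wound cells were dissociated with an enzyme kit and profiled with 10x Chromium 3' v3.1 chemistry, 1 library per day. The deposited tables hold whole-number UMI counts that the authors did not normalise. The submitters' processing notes name Cell Ranger 6.0.0 and mm10. Symbols were found for 32158 of 32285 genes.

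UMIs were summed over the cells of a group and given as CPM. Ratios have exact conditional binomial intervals. On simulated Poisson counts these covered 94.5% of 200 changed genes on Day 7 (2807 genes) and 95.0% on Day 14 (2653 genes). The simulation holds no spread between cells, so it checks the calculation and not the width of the intervals for these cells. With 1 library per day there is no p-value. Doublets were scored by simulation among 50 neighbours and kept in the main values. Clusters came from Leiden (leidenalg 0.10.2, resolution 0.8, 30 components, 15 neighbours). Calculations used Python 3.11.15, NumPy 2.4.6 and SciPy 1.17.1. The sequencing depth of each gated cell was at least 2000 UMIs.

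Members, gene lists and markers were chosen with earlier results of these data known. Named genes were the markers, up to 5 genes per list past a log2 ratio of 1 on both days with 1 or 2 that were not, the 12 highest and 8 lowest by the day nearer 0, and the 5 highest and 5 lowest of Day 14 over Day 7. Genes described for 1 day only, or as not following a list, were named after their values were seen. 1 listed gene is not reported here.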

Additional observations from a re-analysis of the deposited data

How the results depend on the processing

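With the *C3* limit at 0.05% of UMIs, C3-high cells were 14.9% of gated fibroblasts on Day 7 and 5.60% on Day 14, where 58 genes were higher and 45 lower. At 0.2% they were 1.34% and 0.632%, with 233 genes lower on Day 7 and 169 higher and 151 lower on Day 14. Without the *Pi16* limit the shares were 14.7% and 4.78%, with 152 genes higher on Day 14, and with at least 3% fibroblast genes the Day 7 share was 7.44%. Against a reference weighted to the cluster mix of C3-high cells, 37 genes were higher and 24 lower on Day 7 and 55 and 33 on Day 14. A limit of 10 CPM gave 167 higher and 301 lower on Day 7 and 236 and 297 on Day 14, and no CPM limit gave 782 and 2292, and 1241 and 3629. On Day 14, thinning to 2000 UMIs gave 118 lower genes and scaling without the 50 most abundant genes gave 113. Causes of these moves were not tested. The counts and shares otherwise moved by less than 1.5 times or stayed inside their intervals.

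Of 94 log2 ratios of named genes of at least 1 in size, 1500 values were computed under alternatives. Of these values 1427 were at least 1 in size, whatever their direction, and the direction held in 1494. The 6 exceptions were *Krt14* and *Krt5* on Day 14, which rest on 1 cell. *Krt14* was at -2.08 without that cell (an alternative added after the data were seen), -2.49 at the 0.2% *C3* limit, -1.56 with at least 3% fibroblast genes and -0.47 with doublets removed. *Krt5* was at -1.11 without the cell and -0.74 with at least 3% fibroblast genes. No paired analysis was possible because each day is 1 library, and for the same reason no library could be left out. C3-high cells held 3244367 UMIs in all on Day 7 and 1218686 on Day 14, so low genes are less precise on Day 14.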

Other observations

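A few genes outside the lists, named here after their values were seen, had large ratios carried by part of the C3-high cells, or were rare in them. *Inmt*, which encodes an indolethylamine N-methyltransferase, stood at 133 CPM in C3-high cells and 3.75 CPM in the reference on Day 14 and was found in 40 of 139 and 126 of 5559 cells. On Day 7 it was below the limit of 50 CPM, at 28.4 against 0.675 CPM. *Smpd3*, a neutral sphingomyelinase, stood at 67.3 against 2.40 CPM on Day 14, in 38 and 98 cells, and at 20.3 against 1.33 CPM on Day 7. *Pcolce2*, an enhancer of procollagen processing, stood at 149 against 17.1 CPM on Day 7 and 464 against 188 CPM on Day 14. *Tnn*, tenascin N, went the other way, at 7.71 against 134.6 CPM on Day 7, in 13 of 333 C3-high cells (3.90%) and 33.7% of reference cells.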
